A study of Mus musculus with 4 samples.

Results

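The genes described here are 39 components of the presynaptic vesicle release machinery, chosen as a named list of symbols (synapsins, synaptotagmins, SNARE proteins, active zone and priming proteins, vesicle membrane proteins and Rab3 proteins) and looked up by symbol among the 32285 features of each count matrix, in which all 39 were found. Their values were read in barcodes with at least 600 UMIs (unique molecular identifiers, each counting 1 captured RNA molecule), by library and by cell class. Nuclei came from the hippocampus of mice of the genotype ArcCreERT2::eYFPflx, a tamoxifen-inducible Cre driven by the activity-dependent gene Arc together with a floxed eYFP reporter, which all groups carried. The Trained group had learned active place avoidance, in which a mouse on a rotating arena keeps away from a shock zone, and the Untrained group is its control. Tissue was taken 3 days after a retention test from 2 Trained and 2 Untrained mice, with no recall session before it, and the comparison asks what differs while a memory is kept. The age of the mice is not in the labels, and nuclei carrying the eYFP mark and the spatial data of the same study were not analysed here. With 1 library for each mouse there were n = 2 per group. The p-values for training measure only the spread among the 4 libraries. Those for contrasts between classes measure the spread that remains over the tested classes and libraries once differences between whole libraries are removed.

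Neurotransmitter is released when a vesicle filled with transmitter docks at the active zone, is made ready by priming proteins, and fuses with the plasma membrane once calcium enters. Fusion is driven by SNARE proteins on the vesicle and on the target membrane, timed by synaptotagmins and complexins, and fed from a reserve of vesicles that synapsins hold together. RIM, Munc13, ELKS, liprin, Bassoon and Piccolo proteins build the active zone, and which paralogs a neuron uses is known to set how reliably and how fast its terminals release. Hippocampal mossy fibres, the axons of dentate granule cells, and the Schaffer collaterals of CA3 pyramidal cells are classical examples of terminals that differ in this way. The RNA in a nucleus is largely young, unspliced transcript, so these levels describe nuclear RNA and not protein at the terminal.

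The 4 libraries held 6019, 12206, 16916 and 11969 nuclei with at least 600 UMIs in Trained replicates 1 and 2 and Untrained replicates 1 and 2, and the median nucleus held 736, 887, 957.5 and 1079 UMIs. Trained replicate 1 thus had the fewest and the shallowest nuclei. Both Trained libraries had a lower median of UMIs than both Untrained ones. Their median mitochondrial share was also lower, at 0.271% and 0.281% against 0.445% and 0.378%. Depth thus differed with training, and the design cannot tell them apart. The release genes took 1.41%, 1.35%, 1.35% and 1.29% of the UMIs in these libraries, with a median of 11 to 14 UMIs of the 39 genes per nucleus, so single nuclei were not read and counts were summed. Any pair of libraries shared 17 to 65 barcodes, at most 0.533% of the nuclei of a library. Nuclei were put in a class by a marker gate of 12 marker sets that hold none of the release genes, and the gate assigned 30.7%, 36.6%, 33.9% and 40.2% of the nuclei. The gate cuts a per-nucleus score, so its classes are ranges and not proven types, and 18.9% to 29.5% of the assigned nuclei lay close to its cut. No doublet caller was run, and a nucleus whose best marker set did not lead the next one stayed unassigned. In 8 classes every library had at least 30 nuclei, and in each of these the class's own markers took 5.12 to 17.5 of every 1000 UMIs while no other marker set took more than 4.77. A median nucleus of these classes carried up to 7 UMIs from the marker set of another class, in thalamic nuclei, and up to 4 in the other classes. The 8 classes were inhibitory neurons, thalamic excitatory, cortical excitatory, astrocyte, oligodendrocyte, dentate granule, CA3 pyramidal and CA1 pyramidal nuclei. Thalamic and cortical markers thus appeared in tissue labelled hippocampus. Levels are given as counts per 1000000 UMIs (CPM) of a class in a library, and runs of 4 values belong to Trained replicates 1 and 2 and then Untrained replicates 1 and 2.

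The promoters shown are those of the 5 release genes with the largest ratio of highest to lowest mean level over the 8 classes. Doc2a, which is too low to rank, was left out. For Sv2c the lowest mean was only 5.43 CPM, in cortical nuclei. Many of the class differences described below belong to other release genes. RefSeq's table for the build GRCm38.p6 matched 31 of the 39 genes by symbol, with 41 start sites among them. Each sequence is the 250 bases before the annotated transcript start, 5′ to 3′ in the direction of the gene, and so lies upstream of its transcript. Capitals mark the GC box, GGGCGG on either strand, a binding motif of Sp1-type factors.
Synpr: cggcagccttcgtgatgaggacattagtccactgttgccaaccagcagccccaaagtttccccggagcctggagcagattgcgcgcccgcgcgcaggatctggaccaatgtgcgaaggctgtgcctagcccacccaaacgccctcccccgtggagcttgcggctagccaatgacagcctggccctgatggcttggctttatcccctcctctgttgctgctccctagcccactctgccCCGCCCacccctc
Unc13c: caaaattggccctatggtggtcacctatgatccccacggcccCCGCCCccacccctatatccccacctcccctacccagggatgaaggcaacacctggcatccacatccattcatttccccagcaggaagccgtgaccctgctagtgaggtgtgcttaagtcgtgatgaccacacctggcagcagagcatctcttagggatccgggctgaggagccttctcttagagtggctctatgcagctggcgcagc
Rims3: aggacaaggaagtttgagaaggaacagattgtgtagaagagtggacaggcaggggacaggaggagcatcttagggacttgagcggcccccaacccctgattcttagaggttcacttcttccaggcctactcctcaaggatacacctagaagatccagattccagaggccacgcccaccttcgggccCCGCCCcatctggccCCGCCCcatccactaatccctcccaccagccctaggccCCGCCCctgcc
Sv2c: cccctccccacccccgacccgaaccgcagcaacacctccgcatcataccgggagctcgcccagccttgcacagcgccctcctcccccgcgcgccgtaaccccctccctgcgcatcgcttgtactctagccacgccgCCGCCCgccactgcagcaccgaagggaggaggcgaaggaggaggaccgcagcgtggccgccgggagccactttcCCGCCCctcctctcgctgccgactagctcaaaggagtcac
Cadps2: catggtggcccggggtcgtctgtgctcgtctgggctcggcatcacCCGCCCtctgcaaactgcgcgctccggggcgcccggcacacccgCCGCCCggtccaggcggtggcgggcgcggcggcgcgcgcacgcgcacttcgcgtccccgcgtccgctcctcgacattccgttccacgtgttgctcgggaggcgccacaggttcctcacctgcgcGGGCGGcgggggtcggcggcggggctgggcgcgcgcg
A GC box was found in 32.7% of all 32851 promoter windows of this length and in 24 of the 41 windows of the release genes, or 58.5%. Windows of all genes had a median of 6 CpG pairs and a GC content of 52.4%. The E-box CANNTG, searched on both strands, was in 66.2% of all windows and in 29 of the 41. The cAMP response element TGACGTCA was in 1.55% of all windows and in 1 of the 41. The Synpr window (ENSMUSG00000056296) is chr14:13284530-13284779 on the + strand, with 13 CpG pairs and 1 GC box. The Unc13c window (ENSMUSG00000062151) is chr9:73969038-73969287 on the - strand, with 6 CpG pairs and 1 GC box. The Rims3 window (ENSMUSG00000032890) is chr4:120854549-120854798 on the + strand, with 6 CpG pairs and 3 GC boxes. The Sv2c window (ENSMUSG00000051111) is chr13:96132578-96132827 on the - strand, with 26 CpG pairs and 2 GC boxes. The Cadps2 window (ENSMUSG00000017978) is chr6:23839422-23839671 on the - strand, with 44 CpG pairs and 3 GC boxes. Synpr has a further start in the table, and its most upstream one is shown. These are letter matches in fixed windows and no factor binding was measured.

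**Figure D1:**
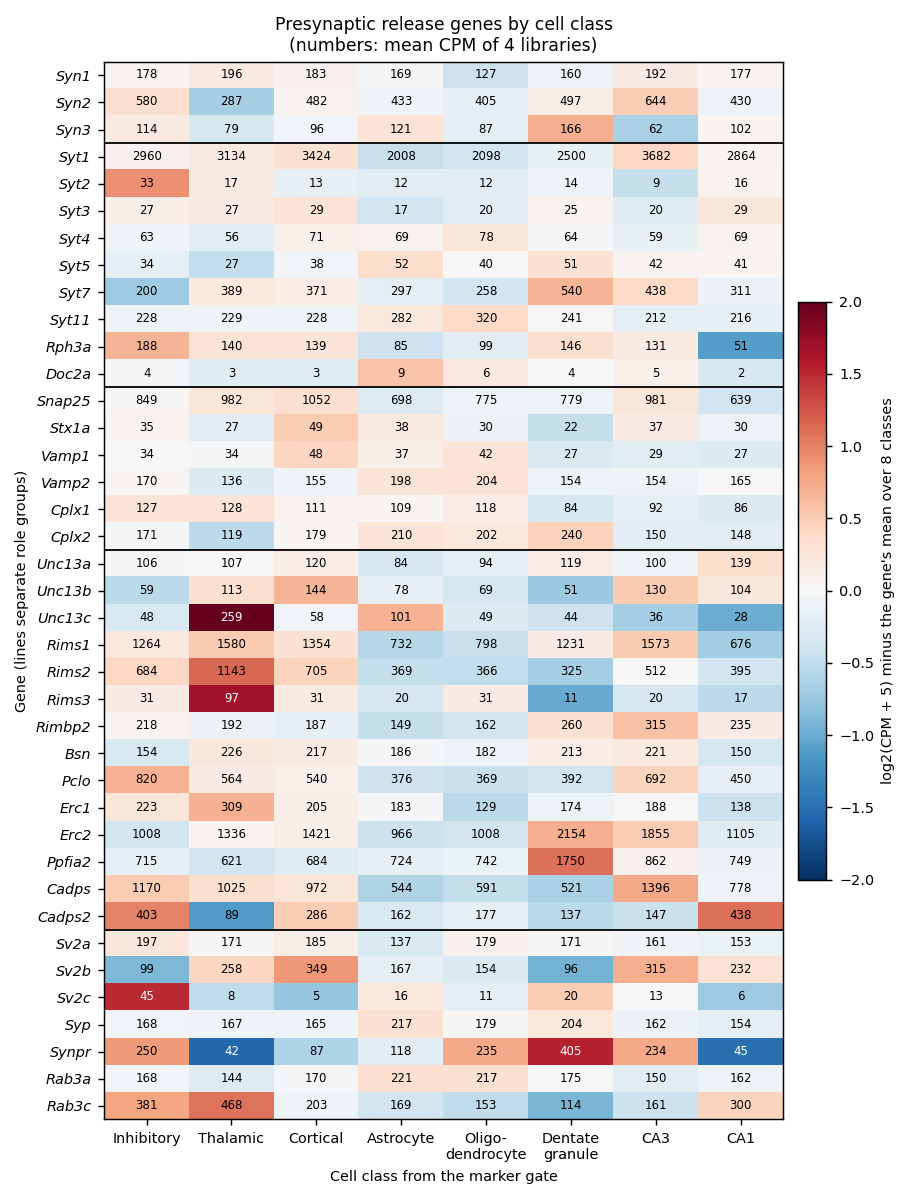
Mean level of each of the 39 release genes in the 8 cell classes, as CPM averaged over 4 libraries (printed in each cell) and as colour, log2(CPM + 5) minus the gene's mean over the classes. Columns run from inhibitory neurons to CA1 pyramidal nuclei, and horizontal lines separate the 5 role groups. Synpr, Cadps2, Sv2c, Unc13c and Rims3 show the strongest colours, while rows such as Vamp2, Syp and Rab3a stay pale.

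The release genes differed between classes of neurons. As class means, dentate granule nuclei held the most Synpr, Ppfia2 and Syt7, CA1 nuclei the most Cadps2, thalamic nuclei the most Unc13c, Rims2, Rims3 and Rab3c, and inhibitory neurons the most Sv2c and Pclo. With the library as a block, edgeR's quasi-likelihood test over 9009 genes (Benjamini-Hochberg adjusted p under 0.05) called 15 of the 38 release genes that passed the count filter higher and 3 lower in CA3 than in CA1 nuclei, where 12.1% of all genes were called, 6.85% as higher and 5.28% as lower. In dentate granule against CA1 nuclei 11 were higher and 7 lower (22.6% of all genes called, 10.4% higher and 12.2% lower). In dentate granule against CA3 nuclei 4 were higher and 12 lower (20% of all genes called, 8.45% higher and 11.5% lower). Inhibitory neurons, set against the mean of the dentate granule, CA3 and CA1 classes (the hippocampal excitatory mean below), had 14 release genes higher and 8 lower (28.4% of all genes called, 14.9% higher and 13.5% lower). Thalamic excitatory nuclei had 12 higher and 8 lower than that mean (38.1% of all genes called, 20.4% higher and 17.7% lower). The median log2 difference over the release genes was 0.24 for CA3 over CA1, against -0.01 over all genes, and 0.10 for dentate granule over CA1, against 0.01. Over the 7 contrasts, which include 2 for glia and none for the cortical class, 131 of 266 gene and contrast pairs were called. Per contrast, 12.1% to 38.1% of all genes were called. Of the 38 release genes, 33 were called in at least 1 contrast, and that share over all genes was not counted. Doc2a, a soluble calcium sensor, did not pass the filter, with 21, 54, 120 and 58 UMIs over all nuclei. These fits pool the spread of all 8 classes, and several contrasts share a class.

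Among the proteins of the vesicle membrane, synaptoporin (Synpr), a relative of synaptophysin known as a marker of mossy fibre terminals, differed most. Synpr stood at 307, 322, 491 and 502 CPM in dentate granule nuclei and at 193, 226, 247 and 270 CPM in CA3 nuclei, against 62.8, 22.7, 56.3 and 38.3 CPM in CA1 nuclei. Every dentate granule and every CA3 library lay above every CA1 library. The log2 difference was 3.24 ± 0.15 (SE) for dentate granule over CA1 (edgeR adjusted p = 1.89e-32) and 2.56 ± 0.18 for CA3 over CA1 (edgeR adjusted p = 3.65e-21). Inhibitory neurons also held much Synpr, with 211, 239, 268 and 282 CPM. Thalamic nuclei held 65.8, 31.3, 31.5 and 41.2 CPM, and fell below the hippocampal excitatory mean by 2.01 ± 0.17 on the log2 scale (edgeR adjusted p = 6.81e-18).

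The SV2 proteins are vesicle glycoproteins that come in 3 forms, and each had its own distribution over classes. Sv2b was at 144, 91.5, 84.5 and 64.1 CPM in dentate granule nuclei, against 239, 361, 338 and 321 CPM in CA3 nuclei. CA1 nuclei held 194, 265, 228 and 241 CPM. No dentate granule library reached a CA3 or CA1 library. The log2 difference of Sv2b was -2.04 ± 0.14 for dentate granule over CA3 (edgeR adjusted p = 1.33e-21) and -1.57 ± 0.13 for dentate granule over CA1 (edgeR adjusted p = 8.35e-18). Inhibitory neurons held 114, 95.8, 105 and 80.6 CPM, a log2 difference of -1.03 ± 0.12 from the hippocampal excitatory mean (edgeR adjusted p = 8.78e-12). Sv2c had the reverse bias toward inhibitory neurons. Its 44.9, 45.4, 41.2 and 49.2 CPM there lay above every library of the other 7 classes, at a log2 difference of 1.87 ± 0.22 from the hippocampal excitatory mean (edgeR adjusted p = 1.09e-11). Sv2c rests on few molecules, 13, 37, 47 and 44 UMIs in the inhibitory class. Sv2a was called higher in inhibitory neurons, by 0.34 ± 0.11 on the log2 scale (edgeR adjusted p = 0.00868), and in no other contrast. That call was lost without Trained replicate 2 (edgeR adjusted p = 0.163), Untrained replicate 1 (0.102), Untrained replicate 2 (0.0754) or the library block (0.139).

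Rab3 proteins are small GTPases that sit on vesicles and recruit effectors such as RIM and rabphilin. Rab3c was at 437, 413, 450 and 573 CPM in thalamic nuclei and at 380, 401, 350 and 393 CPM in inhibitory neurons. CA1 nuclei held 343, 278, 265 and 317 CPM, CA3 nuclei 180, 140, 164 and 163 CPM and dentate granule nuclei 120, 104, 108 and 122 CPM. These 5 classes thus fell in a stepwise order. No overlap occurred between thalamic and inhibitory, inhibitory and CA1, CA1 and CA3, or CA3 and dentate granule libraries. Cortical libraries, at 128 to 379 CPM, spread across several of these steps. Rab3c was 1.46 ± 0.09 higher in thalamic nuclei than the hippocampal excitatory mean on the log2 scale (edgeR adjusted p = 6.94e-24) and 1.06 ± 0.10 higher in inhibitory neurons (edgeR adjusted p = 3.26e-16). Dentate granule nuclei were at -1.45 ± 0.13 against CA1 nuclei (edgeR adjusted p = 7.06e-17). Rab3a did not follow this order. Its class means ran from 144 CPM in thalamic to 221 CPM in astrocyte nuclei, and no contrast between classes of neurons called it. Syp, the abundant vesicle protein synaptophysin, was likewise called in no contrast.

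Priming proteins turn docked vesicles into release-ready ones, and the 2 CAPS genes, Cadps and Cadps2, known for priming dense core vesicles, were split between classes. Cadps2 stood at 159, 119, 124 and 145 CPM in dentate granule nuclei and at 173, 115, 172 and 126 CPM in CA3 nuclei, against 400, 449, 471 and 433 CPM in CA1 nuclei. All CA1 libraries were above all libraries of the other classes just named. The log2 difference was -1.82 ± 0.12 for dentate granule over CA1 (edgeR adjusted p = 1.79e-22) and -1.62 ± 0.15 for CA3 over CA1 (edgeR adjusted p = 1.18e-15). Cadps2 was also high in inhibitory neurons, at 456, 360, 349 and 448 CPM, which is 0.89 ± 0.10 above the hippocampal excitatory mean on the log2 scale (edgeR adjusted p = 1.43e-12). Cadps had another order. It stood at 664, 495, 462 and 464 CPM in dentate granule nuclei, against 1390, 1432, 1300 and 1463 CPM in CA3 nuclei, with no overlap. That log2 difference was -1.57 ± 0.12 (edgeR adjusted p = 2.67e-19), and CA3 nuclei were 0.89 ± 0.12 above CA1 nuclei (edgeR adjusted p = 3.37e-09), which held 862, 840, 692 and 718 CPM.

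The Munc13 proteins, encoded by Unc13a, Unc13b and Unc13c, are the central priming factors, and Munc13-3 (Unc13c) is best known from the cerebellum. Unc13c was at 228, 233, 250 and 326 CPM in thalamic nuclei. The dentate granule, CA3 and CA1 libraries held between 13.6 and 73.8 CPM, so every thalamic library was above all of them. The log2 difference of thalamic nuclei from the hippocampal excitatory mean was 3.16 ± 0.14 (edgeR adjusted p = 8.13e-35). Unc13b, or Munc13-2, was low in dentate granule nuclei, at 58.3, 47.2, 50.2 and 46.4 CPM, against 160, 130, 110 and 119 CPM in CA3 nuclei. The log2 difference was -1.46 ± 0.16 (edgeR adjusted p = 1.17e-12), and against CA1 nuclei it was -1.23 ± 0.13 (edgeR adjusted p = 4.51e-13). Unc13a, or Munc13-1, had its highest class mean, 139 CPM, in CA1 nuclei, and dentate granule nuclei were -0.36 ± 0.12 from CA1 on the log2 scale (edgeR adjusted p = 0.0145), a call lost under 6 of 11 alternatives, among them leaving out Trained replicate 2 (edgeR adjusted p = 0.13), Untrained replicate 1 (0.128) or Untrained replicate 2 (0.0546).

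RIM proteins hold calcium channels and Rab3 at the active zone. Rims1 was at 1235, 1330, 1131 and 1227 CPM in dentate granule nuclei and at 1403, 1756, 1506 and 1626 CPM in CA3 nuclei, against 702, 710, 646 and 648 CPM in CA1 nuclei. CA1 libraries were below every library of the other 5 neuronal classes. CA3 nuclei were 1.26 ± 0.13 above CA1 nuclei on the log2 scale (edgeR adjusted p = 5.81e-13). Rims2 was at 1003, 1132, 1236 and 1200 CPM in thalamic nuclei, above every library of every other class. The log2 difference from the hippocampal excitatory mean was 1.55 ± 0.09 (edgeR adjusted p = 2.21e-27). Rims3, a short form without the zinc finger domain of the longer RIM proteins, was at 74.8, 127, 79.4 and 108 CPM in thalamic nuclei, and its libraries in dentate granule, CA3 and CA1 nuclei held 6.82 to 39.9 CPM. Its log2 difference was 2.74 ± 0.19 (edgeR adjusted p = 7.18e-22). Thalamic nuclei thus held the most Unc13c, Rims2, Rims3 and Rab3c of the 8 classes.

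The scaffolds of the active zone separated the classes in other ways. Ppfia2, which encodes liprin-α2, was at 1647, 1888, 1679 and 1784 CPM in dentate granule nuclei, against 851, 748, 707 and 691 CPM in CA1 nuclei. Dentate granule libraries were above every library of the other classes, at a log2 difference of 1.16 ± 0.13 from CA1 (edgeR adjusted p = 2.45e-12). Erc2, an ELKS family scaffold, was called higher in dentate granule than in CA1 nuclei by 0.90 ± 0.12 (edgeR adjusted p = 7.89e-10) and in CA3 than in CA1 nuclei by 0.79 ± 0.12 (edgeR adjusted p = 2.23e-07). Its mean was 2154 ± 163 CPM in dentate granule, 1855 ± 136 CPM in CA3 and 1105 ± 111 CPM in CA1 nuclei (SD, n = 4 libraries). Erc1, its paralog, was highest in thalamic nuclei, at a log2 difference of 0.93 ± 0.09 from the hippocampal excitatory mean (edgeR adjusted p = 3.89e-14). Pclo, the giant scaffold Piccolo, was highest in inhibitory neurons with 820 ± 57.1 CPM (SD, n = 4 libraries), 0.66 ± 0.09 above the hippocampal excitatory mean on the log2 scale (edgeR adjusted p = 1.28e-09), whereas Bsn, its partner Bassoon, was -0.43 ± 0.10 from that mean (edgeR adjusted p = 0.000428). Rimbp2, which links RIM to calcium channels, was highest in CA3 nuclei, 0.51 ± 0.13 above CA1 (edgeR adjusted p = 0.00185), a call lost without Untrained replicate 2 (edgeR adjusted p = 0.153) and with nuclei thinned to 600 UMIs (edgeR adjusted p = 0.123). Of the 14 active zone and priming genes, 8 were called higher and 1 lower in CA3 than in CA1 nuclei (6.85% and 5.28% of all genes), 5 higher and 5 lower in dentate granule than in CA1 nuclei (10.4% and 12.2%), and 1 higher and 6 lower in dentate granule than in CA3 nuclei (8.45% and 11.5%). They were 7 higher and 6 lower in inhibitory neurons (14.9% and 13.5%) and 7 higher and 4 lower in thalamic nuclei (20.4% and 17.7%), each against the hippocampal excitatory mean.

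Among the calcium sensors, synaptotagmin 7 (Syt7), the slow high-affinity sensor linked to facilitation and asynchronous release, had the smallest p. Syt7 was at 263, 203, 182 and 154 CPM in inhibitory neurons, against 524, 541, 555 and 541 CPM in dentate granule nuclei. CA3 nuclei held 432, 483, 429 and 408 CPM and CA1 nuclei 343, 306, 308 and 286 CPM. Inhibitory libraries were below all of these, and the log2 difference from the hippocampal excitatory mean was -1.19 ± 0.10 (edgeR adjusted p = 5.85e-17). Dentate granule nuclei were 0.75 ± 0.11 above CA1 nuclei (edgeR adjusted p = 3.4e-08). Rph3a, the Rab3 effector rabphilin, was lowest in CA1, where dentate granule nuclei were 1.43 ± 0.15 higher on the log2 scale (edgeR adjusted p = 1.14e-13) and CA3 nuclei 1.4 ± 0.18 higher (edgeR adjusted p = 2e-09). Syt2, a fast sensor used by many interneurons, averaged 32.7 CPM in inhibitory neurons, 1.3 ± 0.22 above the hippocampal excitatory mean (edgeR adjusted p = 1.02e-06), from 7 to 43 UMIs a library. Syt1, the main fast sensor of forebrain neurons, varied less, with 3682 CPM as its highest class mean in CA3 and 2500 CPM as its lowest among neurons in dentate granule nuclei. Syt3, Syt4 and Syt11 were called in no contrast between classes of neurons.

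Of the 6 SNARE and complexin genes, 1 was called in CA3 against CA1 nuclei (12.1% of all genes), 1 in dentate granule against CA1 (22.6%) and 3 in dentate granule against CA3 (20%). Against the hippocampal excitatory mean 1 was called in inhibitory neurons (28.4% of all genes) and 3 in thalamic nuclei (38.1%). Snap25, the plasma membrane SNARE, was called 0.66 ± 0.12 higher in CA3 than in CA1 nuclei on the log2 scale (edgeR adjusted p = 1.5e-05) and was close to the hippocampal excitatory mean in inhibitory neurons, at 0.05 ± 0.09 (edgeR adjusted p = 0.768). Vamp1 and Vamp2, the vesicle SNAREs, were called in no contrast. Stx1a, the plasma membrane syntaxin, was called in 1, at -0.76 ± 0.26 for dentate granule over CA3 (edgeR adjusted p = 0.0283), a call lost under 6 of 11 alternatives, among them leaving out Untrained replicate 1 (edgeR adjusted p = 0.411) or Untrained replicate 2 (0.0547). Complexins clamp and then assist the assembled SNAREs, and the 2 complexin genes differed in opposite ways. Cplx2 was at 241, 235, 248 and 236 CPM in dentate granule nuclei, against 149, 156, 154 and 135 CPM in CA1 nuclei, without overlap, a log2 difference of 0.62 ± 0.11 (edgeR adjusted p = 2.43e-06). In thalamic nuclei Cplx2 was -0.56 ± 0.11 from the hippocampal excitatory mean (edgeR adjusted p = 1.51e-05) and Cplx1 was 0.63 ± 0.12 above it (edgeR adjusted p = 1.11e-05).

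Synapsins tether vesicles in the reserve pool. Syn2 was at 344, 278, 299 and 228 CPM in thalamic nuclei. The hippocampal excitatory libraries held 378 to 699 CPM, so no thalamic library reached them, and the log2 difference was -0.84 ± 0.10 (edgeR adjusted p = 1.04e-11). Syn3 was at 163, 173, 164 and 166 CPM in dentate granule nuclei, against 99.8, 34.3, 32.2 and 80.2 CPM in CA3 nuclei. The CA3 values spread widely between libraries but stayed below every dentate granule library, and the log2 difference was 1.48 ± 0.20 (edgeR adjusted p = 1.82e-09). Syn1 was called in no contrast between classes of neurons. In all, 8 genes had no such call: Syn1, Syt3, Syt4, Syt11, Vamp1, Vamp2, Syp and Rab3a. None of these contrasts included the cortical class, and the share of all genes without such a call was not counted.

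**Figure D2:**
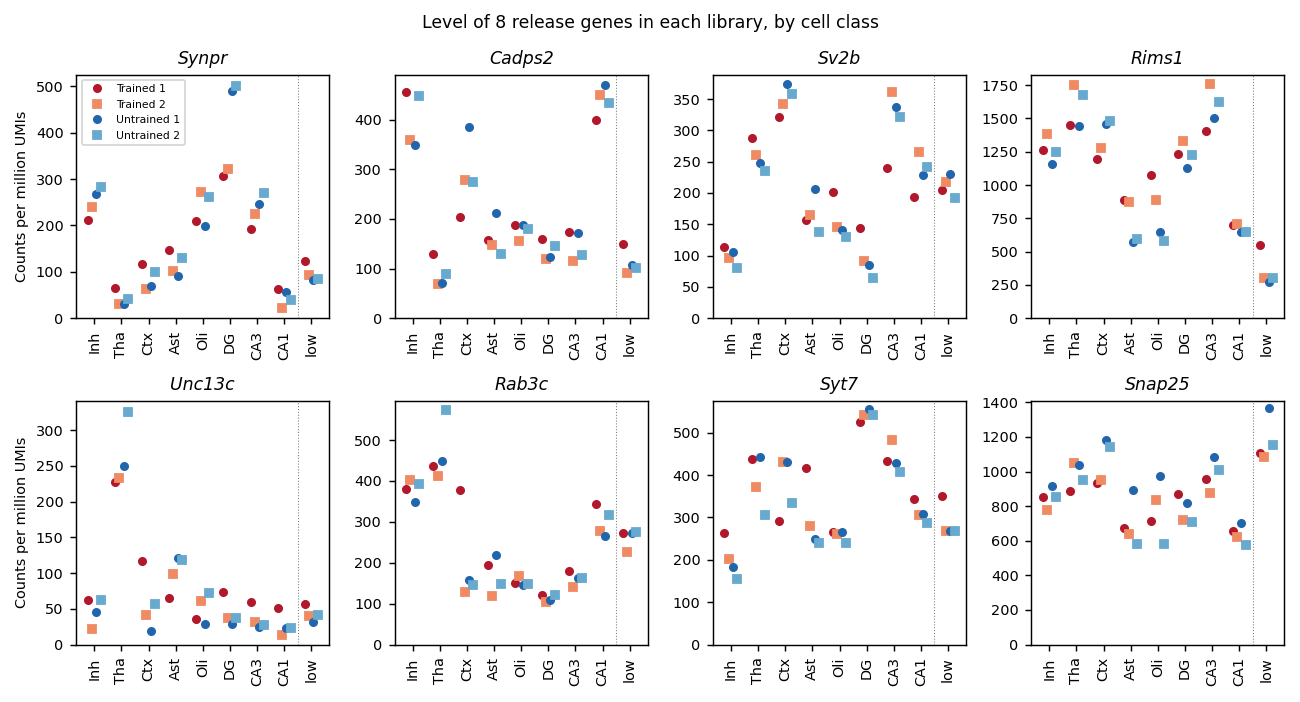
CPM of 8 release genes in each of the 4 libraries (Trained in red tones, Untrained in blue tones) for inhibitory (Inh), thalamic (Tha), cortical (Ctx), astrocyte (Ast), oligodendrocyte (Oli), dentate granule (DG), CA3 and CA1 nuclei, and, right of the dotted line, for barcodes under 400 UMIs (low). Synpr is highest in dentate granule, Cadps2 in CA1 and inhibitory, and Unc13c in thalamic libraries, while Snap25 in the low-UMI barcodes (1086 to 1369 CPM) exceeds most neuronal libraries.

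Glial nuclei carried the release genes at levels not far below those of neurons. Against the hippocampal excitatory mean, oligodendrocyte nuclei had 2 release genes called higher and 15 lower (23.3% of all genes called, 12% higher and 11.3% lower), with a median log2 difference of -0.30 against 0.02 over all genes. Astrocyte nuclei had 3 higher and 17 lower (27.4% of all genes called, 13.4% higher and 14% lower), with a median of -0.23 against 0.01. Erc2, among the 3 genes of smallest p in both contrasts, fell further than these medians. It was at 1195, 1089, 833 and 915 CPM in oligodendrocyte nuclei and 1036, 1182, 796 and 850 CPM in astrocyte nuclei. Those are log2 differences of -0.87 ± 0.11 (edgeR adjusted p = 1.93e-10) and -0.94 ± 0.11 (edgeR adjusted p = 9.62e-12). Rimbp2 was -0.96 ± 0.13 in oligodendrocytes (edgeR adjusted p = 4.84e-09) and -1.06 ± 0.12 in astrocytes (edgeR adjusted p = 2.98e-11), and Syt7 was -0.85 ± 0.12 in oligodendrocytes (edgeR adjusted p = 5.19e-09).

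Snap25, a gene of neurons, averaged 775 ± 167 CPM in oligodendrocyte nuclei (SD, n = 4 libraries), close to its 639 ± 55.2 CPM in CA1 nuclei. In barcodes under 400 UMIs, taken as a profile of free RNA that may also hold shallow nuclei, it was at 1109, 1086, 1369 and 1154 CPM. Markers of other classes were present in the glial nuclei too, up to 2.64 of every 1000 UMIs for a single neuronal or other set in oligodendrocytes and up to 3.49 in astrocytes. The part of free RNA in the glial levels was not tested. An exception to the drop was Unc13c, at 64.8, 99.0, 122 and 119 CPM in astrocyte nuclei, above the 42.1 ± 10.6 CPM (SD, n = 4 libraries) of the low-UMI barcodes. It was 1.74 ± 0.19 above the hippocampal excitatory mean on the log2 scale (edgeR adjusted p = 3.15e-12). Cplx1 and Rab3a were the other genes called higher in astrocytes. The Cplx1 call was lost under 4 of 10 alternatives and the Rab3a call under 5 of 10. In oligodendrocyte nuclei the 2 genes called higher were Syt11, an atypical synaptotagmin, at 0.40 ± 0.11 (edgeR adjusted p = 0.00305), and Synpr, at 0.41 ± 0.14 (edgeR adjusted p = 0.018). The Syt11 call was lost without Untrained replicate 1, at a log2 difference of 0.24 (edgeR adjusted p = 0.255). The Synpr call was lost under 5 of 10 alternatives, among them leaving out Trained replicate 2 (log2 difference 0.21, edgeR adjusted p = 0.388) or Untrained replicate 2 (0.39, edgeR adjusted p = 0.134). Syt11 averaged 320 CPM in oligodendrocyte nuclei and 638 CPM in the low-UMI barcodes.

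The release genes also differed in how much of their RNA lay in the low-UMI barcodes. Rab3a was 3.26 ± 0.67 times as abundant there as in nuclei (SD, n = 4 libraries), and Vamp2 2.88 ± 0.45 times. Erc2, in contrast, was at 0.30 ± 0.11 and Rims1 at 0.317 ± 0.105 of its level in nuclei. In every library 20 of the 39 genes were higher in low-UMI barcodes than in nuclei and 17 were lower. Neither this split nor its relation to gene span was counted over all genes. Gene span from start to end in GENCODE vM21 (build GRCm38) had a median of 29.0 kb over the 20 higher genes and of 444 kb over the 17 lower genes. Across the 39 genes Spearman's rho of span and ratio was -0.90, a description of points that share the same 4 libraries. The genes called in no contrast between classes of neurons were all on the high side, with ratios from 1.43 for Syn1 to 3.26 for Rab3a. Spearman's rho between this ratio and the ratio of the highest to the lowest class mean was -0.60 over 38 genes, so genes with more RNA in low-UMI barcodes tended to have flatter levels over classes. Their RNA in the class sums includes free RNA to an extent that was not tested.

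**Figure D3:**
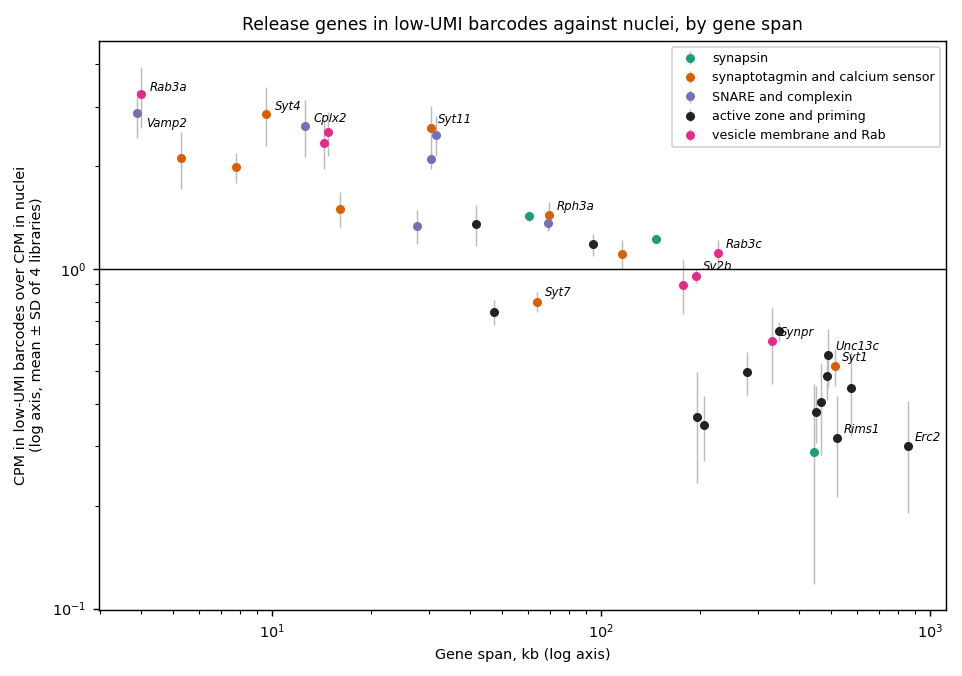
Ratio of each release gene's CPM in barcodes under 400 UMIs to its CPM in nuclei (mean ± SD of 4 libraries, log axis) against the span of the gene in kb (log axis), coloured by role. Short genes such as Rab3a (ratio 3.26) and Vamp2 (2.88) lie above 1 and long genes such as Rims1 (0.317) and Erc2 (0.30) below it.

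No release gene passed the test for a difference between Trained and Untrained mice in any class. The counts called by edgeR's quasi-likelihood test were 0 of 38 in dentate granule (0.00937% of all genes called), 0 of 37 in CA1 (0.0388%), 0 of 34 in CA3 (0.0302%) and 0 of 38 in inhibitory nuclei (0.0295%). They were 0 of 37 in thalamic (0.0115%), 0 of 34 in cortical (0.0204%), 0 of 34 in oligodendrocyte (0%) and 0 of 36 in astrocyte nuclei (0.403%), and 0 of 39 over all nuclei together (0%). At an unadjusted p under 0.05 edgeR picked 21 of the 288 gene and class pairs, 9 in astrocyte, 3 in oligodendrocyte, 4 in dentate granule, 1 in CA3, 0 in CA1, 1 in inhibitory, 2 in thalamic and 1 in cortical nuclei, and 2 genes over all nuclei. Of all genes, edgeR picked 12% in astrocyte, 9.06% in oligodendrocyte, 6.16% in dentate granule, 3.76% in CA3, 4.27% in CA1, 5.15% in inhibitory, 3.63% in thalamic and 6.75% in cortical nuclei at that threshold, and 6.27% over all nuclei. DESeq2's Wald test called 1 release gene, Ppfia2 in astrocytes, and 0 elsewhere, and its count over all genes is not given here. The median log2 change over the release genes lay between -0.13 in cortical and 0.11 in oligodendrocyte nuclei, with all genes between -0.02 and 0.003.

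In dentate granule nuclei Synpr had the smallest p. It stood at 307 and 322 CPM in Trained libraries, against 491 and 502 CPM in Untrained libraries, with no overlap. The log2 change was -0.63 ± 0.16 (edgeR adjusted p = 0.772). Such separation was common: in this class 7 of the 39 release genes lay wholly lower and 6 wholly higher in Trained libraries. The count over all genes was not made. Rab3a was at 117 and 138 CPM in Trained and at 258 and 188 CPM in Untrained libraries, a log2 change of -0.73 ± 0.20 (edgeR adjusted p = 0.772). Both Trained libraries were below both Untrained libraries, as they were for Vamp2, with 140 and 125 CPM in Trained and 186 and 167 CPM in Untrained libraries. Rab3a was also lower in Trained low-UMI barcodes, with 428 and 554 CPM, against 700 and 624 CPM in Untrained ones, and the part of free RNA in the dentate granule value was not tested. Sv2b had a change of the opposite sign, with 144 and 91.5 CPM in Trained and 84.5 and 64.1 CPM in Untrained libraries (log2 change 0.56 ± 0.23, edgeR adjusted p = 0.793). Trained replicate 1 was the highest library, and Trained replicate 2 was close to Untrained replicate 1. Cadps followed, with 664 and 495 CPM in Trained and 462 and 464 CPM in Untrained libraries (log2 change 0.31 ± 0.17, edgeR adjusted p = 0.826).

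In CA1 nuclei no release gene had an unadjusted p under 0.05. Synpr was at 62.8 and 22.7 CPM in Trained and 56.3 and 38.3 CPM in Untrained libraries, and Rims3 at 22.8 and 6.82 CPM in Trained and 25.7 and 12.8 CPM in Untrained libraries. Both sets of libraries overlap, and both log2 changes, -0.62 and -0.99, turned positive without Trained replicate 2. Cadps was higher in both Trained libraries, at 862 and 840 CPM, against 692 and 718 CPM in Untrained libraries (log2 change 0.26 ± 0.17, edgeR adjusted p = 0.999). Sv2a was at 240 and 123 CPM in Trained and 138 and 113 CPM in Untrained libraries, overlapping. In CA3 nuclei Syt4, an atypical synaptotagmin, was at 66.5 and 24.5 CPM in Trained and 93.8 and 51.0 CPM in Untrained libraries, from 10 and 10 UMIs in Trained and 35 and 21 UMIs in Untrained libraries (log2 change -0.94 ± 0.42, edgeR adjusted p = 1). Stx1a was at 26.6 and 27.0 CPM in Trained and 64.3 and 31.6 CPM in Untrained libraries. Sv2a and Cplx1 had the smallest p among genes higher in CA3 nuclei of Trained mice, at log2 changes of 0.46 ± 0.28 and 0.55 ± 0.34, and for neither was the unadjusted p under 0.05.

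Inhibitory neurons had 1 release gene with an unadjusted p under 0.05. Syt7 was at 263 and 203 CPM in Trained and 182 and 154 CPM in Untrained libraries, with no overlap (log2 change 0.46 ± 0.23, edgeR adjusted p = 0.929). Of the 39 release genes, 9 lay wholly higher and 5 wholly lower in Trained libraries of inhibitory neurons, and this was not counted over all genes. Ppfia2 followed at 826 and 726 CPM in Trained and 622 and 686 CPM in Untrained libraries. Unc13c was at 62.2 and 22.1 CPM in Trained and 45.6 and 62.7 CPM in Untrained libraries, and its log2 change of -0.61 turned positive without Trained replicate 2. In thalamic nuclei Syt4 was at 53.9 and 27.4 CPM in Trained and 93.4 and 48.4 CPM in Untrained libraries (log2 change -0.89 ± 0.38, edgeR adjusted p = 1). Syn3 was at 59.9 and 68.5 CPM in Trained and 91.1 and 96.8 CPM in Untrained libraries, without overlap (log2 change -0.54 ± 0.24, edgeR adjusted p = 1). Among thalamic nuclei 7 of the 39 release genes lay wholly lower and 4 wholly higher in Trained libraries, again without a count over all genes. Syn1 and Syp had the smallest p among genes higher in thalamic nuclei of Trained mice, at 0.29 ± 0.21 and 0.24 ± 0.22 on the log2 scale. In cortical nuclei Ppfia2 was at 816 and 906 CPM in Trained and 479 and 536 CPM in Untrained libraries (log2 change 0.78 ± 0.24, edgeR adjusted p = 0.485). The cortical class had only 42 nuclei in Trained replicate 1, where Ppfia2 rests on 28 UMIs.

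The smallest adjusted p of any release gene was that of Ppfia2 in astrocyte nuclei. It was at 1018 and 822 CPM in Trained and 522 and 534 CPM in Untrained libraries, with no overlap (log2 change 0.81 ± 0.22, edgeR adjusted p = 0.054). In astrocytes 15 of the 39 release genes lay wholly higher and 8 wholly lower in Trained libraries, and this was not counted over all genes. Oligodendrocyte nuclei held 972 and 968 CPM of Ppfia2 in Trained and 442 and 587 CPM in Untrained libraries (log2 change 0.94 ± 0.25, edgeR adjusted p = 0.274). Over all nuclei Ppfia2 was at 987 and 1005 CPM in Trained and 760 and 874 CPM in Untrained libraries (log2 change 0.32 ± 0.13, edgeR adjusted p = 0.792). The log2 change was 0.05 ± 0.15 in dentate granule nuclei, where the gene is highest. In the low-UMI barcodes Ppfia2 was at 580 and 358 CPM in Trained and 254 and 300 CPM in Untrained libraries, a log2 change of 0.68 ± 0.26 (edgeR adjusted p = 0.236), and its part in the glial values was not tested. When every nucleus was thinned to 600 UMIs, Ppfia2 was called in both glial classes, with an edgeR adjusted p of 0.00329 in astrocytes and 0.025 in oligodendrocytes, where that fit called 161 and 55 genes of all. Rims1 had a change of the same sign in both glial classes, at 888 and 874 CPM in Trained and 574 and 592 CPM in Untrained astrocytes, and at 1072 and 890 CPM in Trained and 649 and 581 CPM in Untrained oligodendrocytes. Those are log2 changes of 0.62 ± 0.21 (edgeR adjusted p = 0.158) and 0.70 ± 0.24 (edgeR adjusted p = 0.43). Rims1 changed by 0.48 ± 0.28 in the low-UMI barcodes (edgeR adjusted p = 0.367), and their part in its glial values was not tested.

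In astrocytes 20 of the 36 release genes had a positive change, and 3774 of all 7684 genes did. Erc2 and Syt1 were also above the Untrained level in both Trained astrocyte libraries. Erc2 was at 1036 and 1182 CPM in Trained and 796 and 850 CPM in Untrained astrocytes, and Syt1 at 2508 and 2122 CPM in Trained and 1902 and 1498 CPM in Untrained astrocytes. Among the genes with negative changes in glia were Vamp1, Syt4, Rab3a and Syp. Vamp1 was at 0 and 33.0 CPM in Trained and 55.4 and 60.5 CPM in Untrained astrocytes, from 0 and 12 UMIs in Trained and 35 and 28 UMIs in Untrained libraries (log2 change -1.17 ± 0.47, edgeR adjusted p = 0.252). Syt4 was at 74.0 and 30.2 CPM in Trained and 111 and 62.7 CPM in Untrained astrocytes, which overlap (log2 change -1.05 ± 0.40, edgeR adjusted p = 0.223). Rab3a was at 180 and 148 CPM in Trained and 334 and 207 CPM in Untrained oligodendrocytes (log2 change -0.71 ± 0.32, edgeR adjusted p = 0.495), and Syp at 173 and 125 CPM in Trained and 249 and 170 CPM in Untrained oligodendrocytes. The low-UMI barcodes had log2 changes of 0.54 for Erc2 and 0.12 for Syt1. They had -0.26 for Vamp1, -0.40 for Syt4, -0.51 for Rab3a and -0.17 for Syp, and none was called. The part of free RNA in these glial values was not tested. Without Untrained replicate 2, edgeR called 4 release genes among 413 genes in oligodendrocytes and 2 among 150 genes in astrocytes, and without Untrained replicate 1 it called 2 among 58 genes in oligodendrocytes. The Untrained group is then 1 library, which is assumed to vary like the Trained pair.

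**Figure D4:**
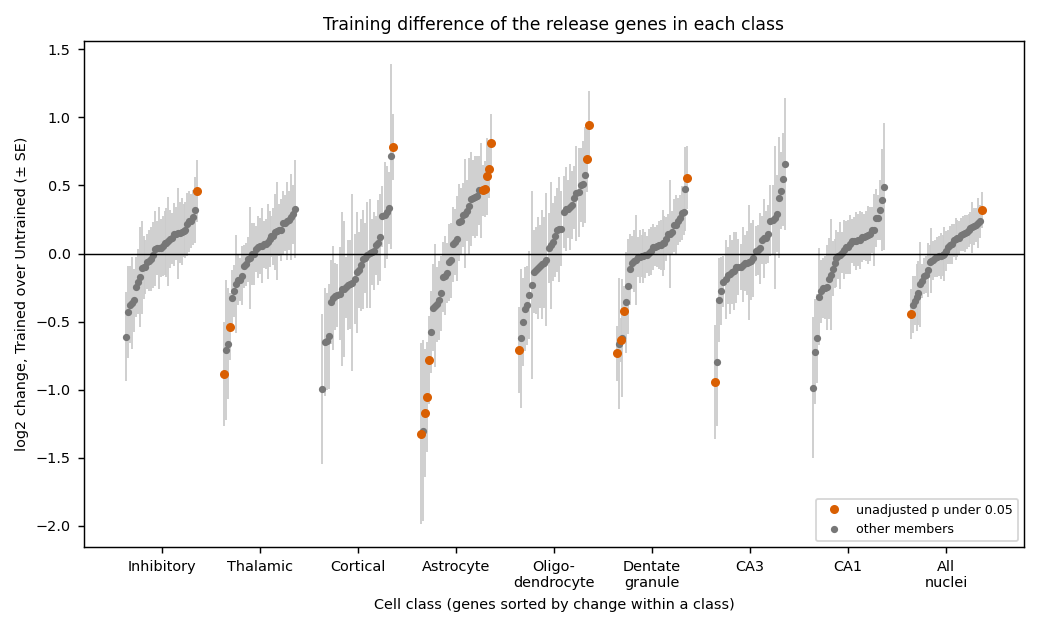
Log2 change of each release gene, Trained over Untrained, with its standard error, in 8 cell classes and in all nuclei; genes are sorted by change within a class, and orange marks an unadjusted edgeR p under 0.05. No gene passed the adjusted threshold, and astrocytes have 9 orange points of 36 genes, where 12% of all genes were under that p.

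Whether training had a different effect in different neurons was tested in a separate fit, which added training terms for the classes to the class and library terms. For dentate granule against CA1, CA3 against CA1, dentate granule against CA3 and inhibitory against CA1 nuclei, edgeR's quasi-likelihood test called 0 of 38 release genes in each, where 0% of the 9009 genes were called. Of the 152 gene and contrast pairs, 4 had an unadjusted p under 0.05 and the smallest adjusted p was 0.999. Syt4 had the smallest, with a difference of -1.20 ± 0.43 on the log2 scale between its effects in CA3 and CA1 nuclei (edgeR adjusted p = 1). DESeq2 was not run on these interactions.

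A further 41 genes of the presynapse, among them other synaptotagmins, syntaxin and SNARE partners, and genes of vesicle recycling, were read in the same fits. Of the 38 that passed the filter, 3 were called higher and 4 lower in CA3 than in CA1 nuclei (12.1% of all genes called), 5 higher and 10 lower in dentate granule than in CA1 nuclei (22.6%), and 4 higher and 7 lower in dentate granule than in CA3 nuclei (20%). Inhibitory neurons had 9 higher and 11 lower (28.4% of all genes called), and thalamic nuclei 13 higher and 8 lower (38.1%), than the hippocampal excitatory mean. Syt9, a fast calcium sensor, was at 165, 233, 165 and 236 CPM in thalamic nuclei, 4.10 ± 0.19 above that mean on the log2 scale (edgeR adjusted p = 5.87e-33). Rab3b, a paralog of Rab3a, was at 51.9, 56.5, 64.8 and 44.8 CPM in inhibitory neurons, 2.79 ± 0.23 above it (edgeR adjusted p = 2.03e-18). Syt10 was at 23.3, 34.9, 43.1 and 51.0 CPM in dentate granule nuclei, against 11.4, 7.96, 2.14 and 9.57 CPM in CA1 nuclei, a log2 difference of 2.56 ± 0.30 (edgeR adjusted p = 1.7e-11). Sh3gl2, the endophilin A1 of vesicle recycling, was 0.77 ± 0.12 higher in CA3 than in CA1 nuclei (edgeR adjusted p = 4.85e-07). In oligodendrocyte nuclei Dnm3, a dynamin, was 1.63 ± 0.10 above the hippocampal excitatory mean (edgeR adjusted p = 5.08e-24) and Bin1, an amphiphysin, 1.27 ± 0.11 above it (edgeR adjusted p = 1.55e-17). Between Trained and Untrained mice edgeR's quasi-likelihood test called 0 of these genes in every class and in all nuclei, with 0 to 3 a class at an unadjusted p under 0.05, and their DESeq2 calls were not counted.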

How the data were processed

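Nuclei of mouse hippocampus were profiled with Chromium 3′ chemistry (version 3.1 per the labels' protocols) in 2 Trained and 2 Untrained libraries. The authors deposited matrices of UMI counts, in which a header line names Cell Ranger 7.0.0 (per the file headers), whereas Cell Ranger 8, STAR and GRCm39 are named per the submitters' processing notes. The authors' matrices hold 41903 to 79810 barcodes and 23155826 to 39749125 UMIs a library. Genes were matched by symbol, and the genes, lists and marker sets used here were chosen with earlier results of these data known.

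Barcodes with at least 600 UMIs were kept as nuclei. For each of 12 marker sets (118 genes) the marker UMIs plus 1 were divided by those expected from the nucleus's depth plus 1, and a class needed 3 marker genes, a ratio of 1.8 and a lead of 1.3 over the next set. A lead under 1.5 counts as close to the cut. Counts were summed per class and library, and only classes with 30 or more nuclei in each of the 4 libraries were tested. The fits used edgeR 4.0.16 under R 4.3.3 (filterByExpr, TMM scaling, quasi-likelihood test), with p adjusted by Benjamini-Hochberg over all genes of a fit at 0.05. Training was tested within each class, without a replicate block. Class contrasts came from 1 fit over 8 classes with the library as a block. Interactions came from another such fit with training terms added. The cortical class was in both fits but in no contrast. The standard error is the absolute log2 change divided by the square root of F. CPM values use the UMIs of a class in a library without TMM scaling, and barcodes under 400 UMIs were summed as low-UMI barcodes. The fits were tested on simulated data. Values are printed per library for up to 3 genes of smallest p in a contrast, the smallest p of each role, and the 2 genes of smallest unadjusted p in each direction in a class tested for training; other genes named were chosen after their values were seen.

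Alternatives were DESeq2 1.42.0 (its size factors, and its Wald test), no count filter, at least 1000 UMIs with 500 genes and at most 5% mitochondrial UMIs, a stricter gate (4 marker genes and a lead of 1.5), nuclei thinned to 600 UMIs, a replicate block or none, and each library left out. Tables and figures were made with pandas 2.3.3, numpy 2.4.6, scipy 1.17.1 and matplotlib 3.10.9 under Python 3.11.15. Promoters and gene spans come from RefSeq and GENCODE tables of GRCm38, which is not the build of the files, and serve only for sequence and span.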

Additional observations from a re-analysis of the deposited data

How the results depend on the processing

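Of the 131 called gene and contrast pairs between classes, 88 were called under every alternative that gave a value and 0 changed sign under any of the 11; 29 calls were lost without Untrained replicate 2, 26 without Untrained replicate 1 and 21 without the library block. For the class contrasts named by smallest p, all 247 alternative values kept their sign and their call. Of the other called contrasts named, several lost their call under at least 1 alternative. Between neurons these were Rimbp2 in CA3 against CA1, Unc13a in dentate granule against CA1, Stx1a in dentate granule against CA3, and Sv2a in inhibitory neurons. In glia they were Syt11 and Synpr in oligodendrocytes, and Cplx1 and Rab3a in astrocytes. For Trained against Untrained, the number of release genes called in oligodendrocytes, 0 by the edgeR test reported, was 1 when nuclei were thinned to 600 UMIs and ranged from 0 to 4 when each library was left out. In astrocytes it was 2 when thinned, 1 by DESeq2's Wald test, and 0 to 2 with each library left out. Ppfia2 was called in each of these cases, with a log2 change of 1.08 and an adjusted p of 0.00329 in thinned astrocytes. No release gene was called in the other classes or in all nuclei under any alternative run. Of the 374 alternative training values of named genes, 4 reversed, none of them called: without Trained replicate 2, Rims3 in CA1 was 0.17, Synpr in CA1 0.35 and Unc13c in inhibitory neurons 0.24 (down to -1.46, -1.03 and -1.24 without another library), and with at least 1000 UMIs Sv2a in CA1 was -0.24. The cause was not tested. Same-numbered libraries correlated at -0.03 to 0.11 after group means were removed. With 2 libraries a group this is 1 value a class, and it cannot settle whether replicate numbers pair the libraries. With a replicate block 0 release genes were called by training in every class. Without the library block, the class contrasts called 14 to 19 release genes each, and the counts over all genes are not given here. Training in cortical nuclei (1000 UMIs, stricter gate) and in oligodendrocytes and astrocytes (1000 UMIs), with their contrasts, was not run because Trained replicate 1 then had fewer than 30 nuclei. Depth limits the rarest genes, Doc2a, Sv2c, Syt2, Rims3 and Stx1a, to few UMIs in a class and library.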
